A study of Homo sapiens with 9 samples.

Results

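The 33 genes described here belong to a list of 34 interferon-stimulated genes, chosen by name from the interferon response. They were not chosen by their values in these cells, but earlier results of these data were known. Each gene was taken as the transcript cluster that carries its symbol on the array, and each had a single cluster. STAT2, the other gene of the list, was not analysed here. The whole array gave values for 17687 named genes. The cells were HepG2, an established human liver cancer line with many hepatocyte features. One group was untreated, and the others received recombinant SPARC, a secreted glycoprotein of the extracellular matrix, at 200 ng/ml or 800 ng/ml, with expression profiled 24 h later. Each of the 3 groups held 3 arrays. The labels give the first group as untreated and name no vehicle, no label says how the recombinant protein was made, and none says whether replicates were separate cultures. P-values therefore reflect only how these samples vary, and that variation may be technical.

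Interferons are secreted proteins that signal through paired surface receptors and kinases of the JAK family. Type I and type III interferons use JAK1 and TYK2, and type II interferon uses JAK1 and JAK2. Type I and type III interferons lead to a complex of STAT proteins with IRF9 that binds an interferon-stimulated response element (ISRE) in the promoters of its targets. Type II interferon leads to STAT dimers that bind a gamma-activated site (GAS). The targets include sensors of viral RNA, transcription factors that amplify the response, and effectors that block viral entry, replication or release. Hepatocytes respond to both type I and type III interferon, so these genes are a common readout of such signalling in liver cells.

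The promoters of the genes show the regulatory sequence that most of them share. RefSeq promoters of GRCh38.p14, from 250 bases before to 50 bases after the start of each gene, were held for 26 of the 33 genes. The core of an ISRE, spelled as GAAA, any 2 bases and GAAA, was searched on both strands. A match stood in 18 of these 26 promoters (69.2%), against 443 of 14250 promoters of genes on the array (3.11%) and 996 of 27305 promoters in all (3.65%). The palindromic letters TTCNNNGAA, the core of a GAS, stood in 8 of 26 (30.8%), against 6.93% of array genes and 7.88% of all promoters. Both matches were held by 4 of the promoters, 4 held the GAS letters alone, and 4 held neither. The 2 kinds of match overlapped in IFITM1, BST2 and IFI27. A match describes the letters and is not evidence of binding. The windows that follow belong to selected genes of the list, 8 with ISRE letters and IRF1 with GAS letters. Each runs from 8 bases before the first match to 8 bases after the last, 5′ to 3′ on the strand of the gene. Capitals mark the ISRE letters, or in IRF1 the GAS letters, with the free positions included.
IFIT1 (chr10:89392499-89392537, plus strand): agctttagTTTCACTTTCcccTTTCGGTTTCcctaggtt
BST2 (chr19:17405737-17405768, minus strand): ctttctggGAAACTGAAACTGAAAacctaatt
ISG20 (chr15:88638939-88638964, plus strand): acaaactaGAAACTGAAAcagggtcg
IFI44L (chr1:78620276-78620392, plus strand): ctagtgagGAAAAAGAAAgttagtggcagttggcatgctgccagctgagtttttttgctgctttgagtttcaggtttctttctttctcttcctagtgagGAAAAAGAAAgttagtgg
HERC5 (chr4:88456986-88457062, plus strand): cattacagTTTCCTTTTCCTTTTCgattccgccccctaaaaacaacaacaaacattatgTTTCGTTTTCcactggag
ISG15 (chr1:1013376-1013407, plus strand): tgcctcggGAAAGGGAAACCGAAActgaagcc
CXCL10 (chr4:76023701-76023726, minus strand): atgttttgGAAAGTGAAAcctaattc
IFI27 (chr14:94110620-94110658, plus strand): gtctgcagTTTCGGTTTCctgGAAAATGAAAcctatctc
IRF1 (chr5:132490881-132490905, minus strand): agcctgatTTCCCCGAAatgacggc

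In IFIT1 and HERC5 the matches lie on the other strand, so they read as TTTC, any 2 bases and TTTC, and IFI27 has one on each strand. The 2 matches of ISG15 and of BST2 overlap each other, as do 2 of the 3 in HERC5. CXCL10 and ISG20 have 1 match each. Of the genes with GAS letters alone, IRF1 and IRF9 encode transcription factors, OAS1 an RNA-sensing enzyme and IFI35 a signalling partner. RIGI, RSAD2, CMPK2 and XAF1 held neither set of letters in these windows.

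**Figure D1:**
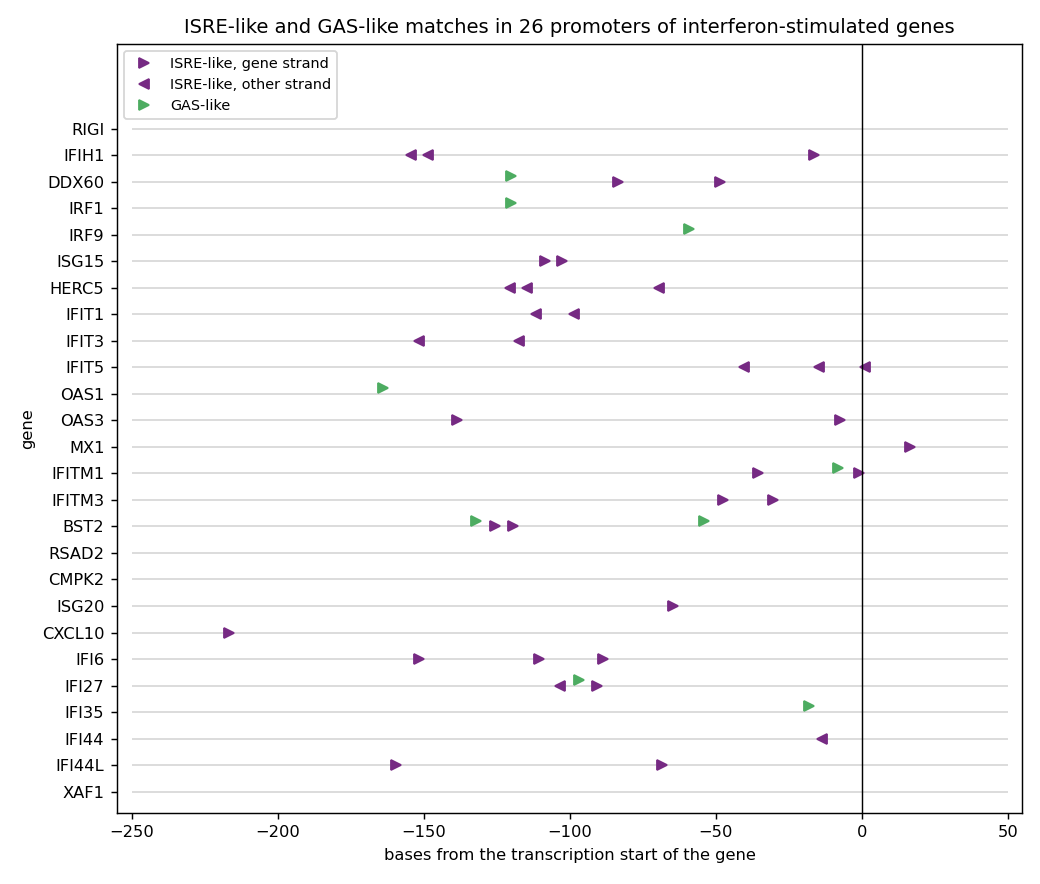
Positions of ISRE-like letters (GAAA, any 2 bases, GAAA, purple, pointing along the strand of the match) and GAS-like letters (TTCNNNGAA, green) in the promoters of 26 interferon-stimulated genes. The horizontal axis gives bases from the transcription start, and each row is a gene. A purple mark stands in 18 of the 26 rows and more than 1 in 14.

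The 9 arrays carry 1 log2 value per gene, with no detection call, so low signals are given only as signals. Median signals lay between 5.41 and 5.55. Untreated replicate 2 stood apart, with correlations of 0.891 to 0.920 with the other arrays, which correlated with each other at 0.979 to 0.991. Of the 33 interferon-stimulated genes it was the lowest of the 9 arrays in 12 and the highest in 10, and of all genes in 41.7% and 32.5%. Results are therefore given with all 9 arrays and with untreated replicate 2 left out. Neural transcripts were high in 800 ng/ml replicates 2 and 3. The summed signal of 8 neural markers was 7.66 to 8.11 on the log2 scale in untreated cells, 7.52 to 7.69 at 200 ng/ml, and 8.01, 9.73 and 9.81 in 800 ng/ml replicates 1, 2 and 3. SPARC itself had 4.05, 4.27 and 4.15 in untreated cells, 3.70, 3.92 and 3.51 at 200 ng/ml and 4.18, 6.79 and 6.48 at 800 ng/ml. The hepatocyte markers ALB, AFP, APOA1 and TTR had mean signals of 12.33, 9.07, 10.29 and 7.68 over the 8 arrays other than untreated replicate 2. These are bulk samples, in which fewer cells of a type and less RNA per cell cannot be told apart.

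No interferon-stimulated gene passed the test at either dose. With all 9 arrays, 0 of 33 genes passed for 200 ng/ml against untreated (limma, smallest adjusted p = 0.966), 0 for 800 ng/ml against untreated (smallest adjusted p = 0.659) and 0 for 800 against 200 ng/ml (smallest adjusted p = 0.999). To pass, a gene needed an adjusted p under 0.05, by the Benjamini-Hochberg method across the 17687 genes, and 0% of all genes met this in each comparison. An unadjusted p under 0.05 was reached by 1 of 33 at 200 ng/ml (1.78% of all genes), 2 of 33 at 800 ng/ml (4.17% of all genes) and 2 of 33 between the doses (2.41% of all genes). With untreated replicate 2 left out, again 0 of 33 passed, with smallest adjusted p-values of 0.323, 0.895 and 0.193 in the same order. There 4, 1 and 6 of 33 had an unadjusted p under 0.05, against 11.3%, 5.36% and 15.3% of all genes.

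The size of a difference that the data leave room for is given by the intervals. In the 8 arrays other than untreated replicate 2, the 95% interval of the log2 difference lay within 2-fold either way for 32 of 33 genes in each comparison. The same held for 96.5% of all genes at 200 ng/ml, 97.5% at 800 ng/ml and 97.3% between the doses. The exceptions were ISG20, with a fold of 1.56 (interval 1.15 to 2.12) at 200 ng/ml against untreated and 0.620 (0.471 to 0.815) between the doses, and IFI44L, with 1.52 (0.977 to 2.36) at 800 ng/ml against untreated. In the 9 arrays 27, 24 and 28 of 33 intervals lay within 2-fold, against 83.3%, 72.8% and 86.2% of all genes. Intervals are those of single genes and are not adjusted for their number.

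**Figure D2:**
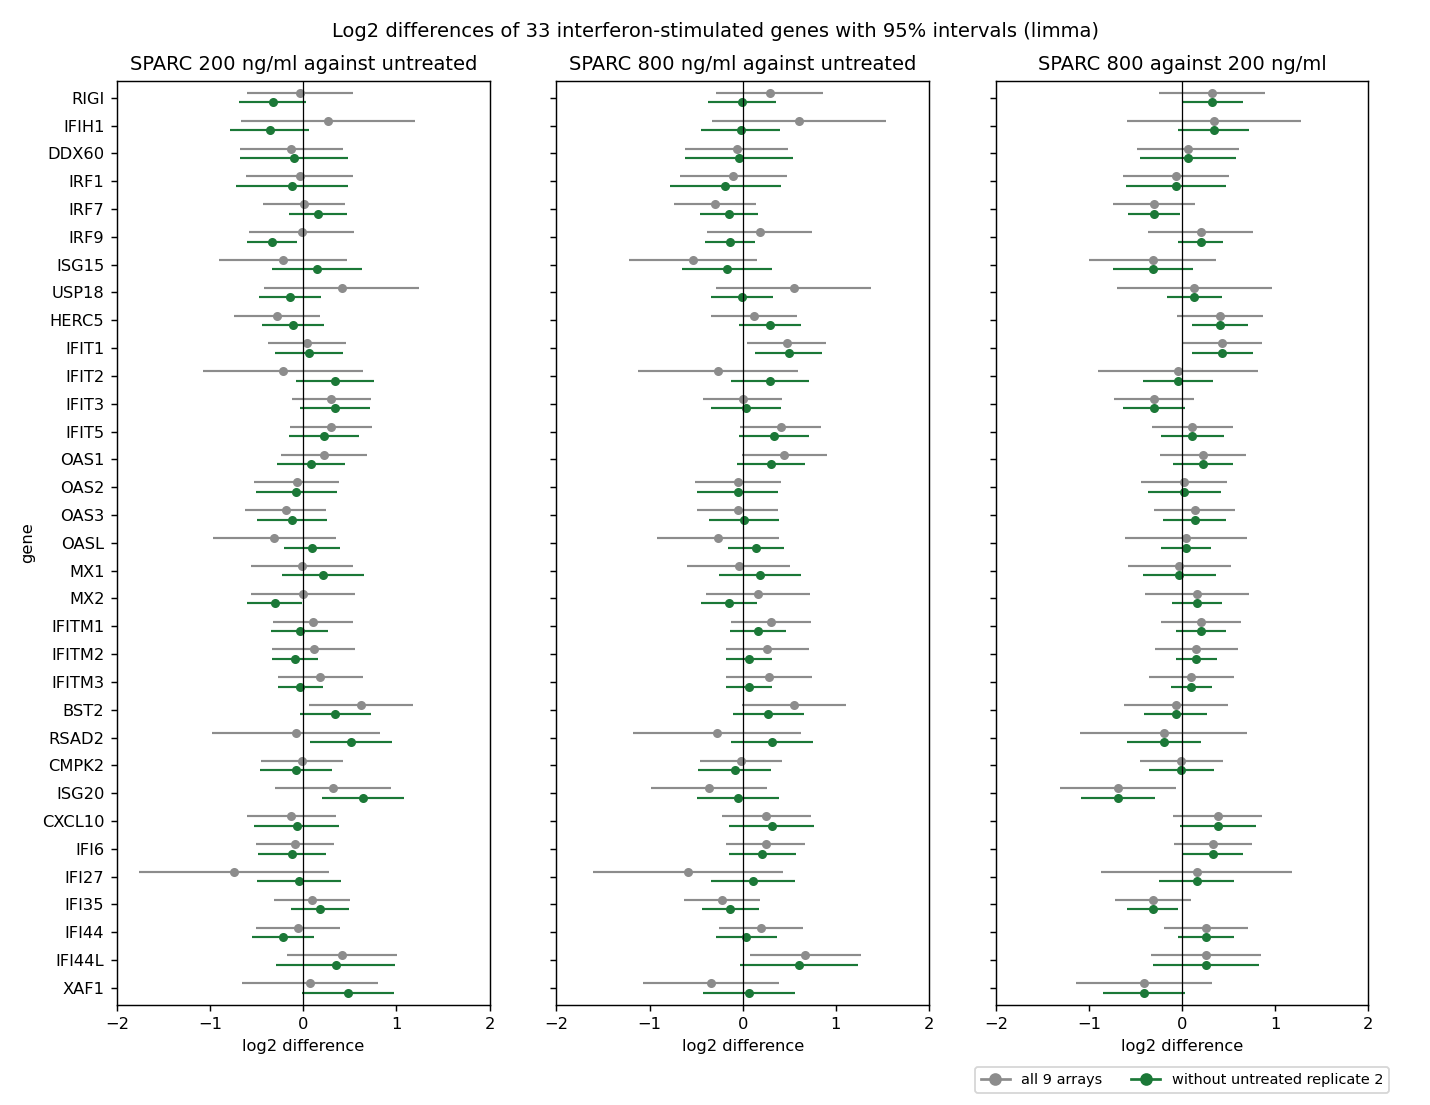
Log2 differences (horizontal axis) of 33 interferon-stimulated genes (rows) in the 3 comparisons, with 95% intervals from the moderated fit, for all 9 arrays (grey) and without untreated replicate 2 (green). In green, 32 of 33 intervals lie between −1 and 1 in each panel.

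The sensors of viral RNA come first. RIGI, which senses viral RNA ends in the cytosol, had a log2 signal of 5.05, 4.07 and 4.87 in untreated replicates 1, 2 and 3, 4.47, 4.56 and 4.84 in replicates 1, 2 and 3 at 200 ng/ml and 5.04, 4.71 and 5.10 in those at 800 ng/ml. IFIH1, the sensor of long duplex RNA, had 5.68, 4.02 and 6.10 in untreated cells, 5.52, 5.74 and 5.32 at 200 ng/ml and 5.96, 5.60 and 6.03 at 800 ng/ml. Untreated replicate 2 was the lowest array for both, and the other arrays of the groups overlapped, except that RIGI lay below untreated replicates 1 and 3 in all 3 arrays at 200 ng/ml. RIGI had a log2 difference of −0.33 ± 0.16 (SE, 95% interval −0.70 to 0.03) at 200 ng/ml against untreated without untreated replicate 2 (adjusted p = 0.473), and −0.01 at 800 ng/ml. The difference of IFIH1 at 800 ng/ml was 0.60 with all 9 arrays and −0.02 without untreated replicate 2. DDX60, a helicase linked to RIGI signalling, ranged from 2.80 to 3.75 over the 8 arrays, with overlapping groups.

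Of the transcription factors, IRF9, the DNA-binding subunit of the complex that recognises the ISRE, had 6.09, 5.10 and 6.04 in untreated cells, 5.87, 5.67 and 5.64 at 200 ng/ml and 6.01, 5.89 and 5.86 at 800 ng/ml. The arrays of each dose lay below untreated replicates 1 and 3. The log2 difference was −0.34 ± 0.12 (SE, 95% interval −0.61 to −0.07) at 200 ng/ml (adjusted p = 0.368) and −0.14 ± 0.12 (SE, 95% interval −0.41 to 0.13) at 800 ng/ml (adjusted p = 0.979). With all 9 arrays these differences were −0.02 and 0.18, and untreated replicate 2 was the lowest array. IRF7, which drives interferon alpha genes, had 4.53, 4.95 and 4.46 in untreated cells, 4.55, 4.69 and 4.71 at 200 ng/ml and 4.47, 4.12 and 4.47 at 800 ng/ml, and the 800 ng/ml arrays lay below the 200 ng/ml arrays. That difference was −0.30 ± 0.12 (SE, 95% interval −0.58 to −0.02) without untreated replicate 2 (adjusted p = 0.301). IRF1, a factor induced by interferon gamma and the gene with GAS letters printed above, ranged from 4.84 to 5.75 in the 8 arrays, with overlapping groups.

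The ISG15 system couples the ubiquitin-like protein ISG15 to other proteins through the ligase HERC5 and removes it through USP18, which also damps receptor signalling. ISG15 had 4.82, 5.99 and 4.96 in untreated cells, 5.30, 4.89 and 4.92 at 200 ng/ml and 5.09, 4.35 and 4.72 at 800 ng/ml. Apart from untreated replicate 2, the highest array, the groups overlapped, and the difference at 800 ng/ml was −0.17 ± 0.21 (SE, 95% interval −0.65 to 0.31) without that array and −0.54 with it. HERC5 had 2.74, 3.32 and 2.87 in untreated cells, 2.67, 2.50 and 2.91 at 200 ng/ml and 2.95, 3.10 and 3.24 at 800 ng/ml. All 800 ng/ml arrays lay above all 200 ng/ml arrays and above untreated replicates 1 and 3, but not above untreated replicate 2. The HERC5 difference between the doses was 0.40 ± 0.13 (SE, 95% interval 0.10 to 0.70) without untreated replicate 2 (adjusted p = 0.238). USP18 had 6.94, 5.28 and 6.96 in untreated cells, 6.60, 6.90 and 6.93 at 200 ng/ml and 7.11, 6.77 and 6.94 at 800 ng/ml. Untreated replicate 2 was far below the rest, and the 200 ng/ml arrays lay below untreated replicates 1 and 3. Its difference at 800 ng/ml was 0.55 with that array and −0.01 without it.

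IFIT proteins bind viral RNA and block its translation. IFIT1 had 3.63, 3.44 and 3.12 in untreated cells, 3.43, 3.43 and 3.44 at 200 ng/ml and 3.93, 3.70 and 3.96 at 800 ng/ml. The 800 ng/ml arrays were the 3 highest of the 9, and the 200 ng/ml arrays lay between untreated replicates 1 and 3. The log2 difference at 800 ng/ml was 0.47 ± 0.19 (SE, 95% interval 0.05 to 0.89) against untreated with all 9 arrays (adjusted p = 0.659) and 0.49 ± 0.16 (SE, 95% interval 0.13 to 0.86) without untreated replicate 2 (adjusted p = 0.895). Against 200 ng/ml it was 0.43 ± 0.14 (SE, 95% interval 0.11 to 0.76) in the 8 arrays (adjusted p = 0.240). IFIT1 was thus the gene of the list whose interval excluded 0 in both comparisons of 800 ng/ml in either set of arrays, and it did not pass after adjustment.

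The other IFIT genes were higher at 200 ng/ml than in untreated replicates 1 and 3. IFIT3, which stabilises IFIT1, had 3.80, 3.80 and 3.58 in untreated cells, 4.14, 4.12 and 3.84 at 200 ng/ml and 3.76, 3.48 and 3.94 at 800 ng/ml. IFIT5, which binds uncapped RNA, had 5.72, 5.59 and 5.88 in untreated cells, 6.14, 5.91 and 6.04 at 200 ng/ml and 6.12, 6.43 and 5.87 at 800 ng/ml. In both, all 200 ng/ml arrays lay above all untreated arrays, and the 800 ng/ml arrays overlapped with untreated cells. The differences at 200 ng/ml were 0.30 ± 0.19 (SE, 95% interval −0.13 to 0.73) and 0.30 ± 0.20 (SE, 95% interval −0.14 to 0.73) with all 9 arrays (adjusted p = 0.966 for both). IFIT2 had 4.61, 6.12 and 4.29 in untreated cells, 4.64, 4.70 and 5.01 at 200 ng/ml and 5.04, 4.64 and 4.54 at 800 ng/ml. Its difference at 200 ng/ml was −0.22 with all 9 arrays and 0.34 without untreated replicate 2, the highest array.

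OAS enzymes sense duplex RNA and make oligoadenylates that activate RNase L, and OASL is a relative without that activity that assists RIGI. OAS1 had 4.70, 4.24 and 4.64 in untreated cells, 4.55, 4.78 and 4.92 at 200 ng/ml and 4.78, 4.92 and 5.22 at 800 ng/ml. Arrays at 800 ng/ml lay above the untreated arrays and overlapped with those at 200 ng/ml. The difference from untreated was 0.45 ± 0.21 (SE, 95% interval −0.01 to 0.91) with all 9 arrays (adjusted p = 0.659) and 0.30 ± 0.16 (SE, 95% interval −0.06 to 0.67) without untreated replicate 2. OAS2 ranged from 3.09 to 3.65 and OAS3 from 6.35 to 6.88 in the 8 arrays, with overlapping groups. OASL had 4.997, 6.27 and 5.12 in untreated cells, 5.19, 4.94 and 5.32 at 200 ng/ml and 5.17, 5.19 and 5.23 at 800 ng/ml, with untreated replicate 2 far above the rest. Its 800 ng/ml arrays were above untreated replicates 1 and 3, with a difference of 0.14.

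MX proteins are antiviral GTPases. MX1 had 3.67, 4.27 and 3.50 in untreated cells, 4.21, 3.58 and 3.61 at 200 ng/ml and 3.69, 3.93 and 3.69 at 800 ng/ml, and MX2 had 7.08, 6.13 and 7.03 in untreated cells, 6.66, 6.82 and 6.75 at 200 ng/ml and 6.92, 6.72 and 7.08 at 800 ng/ml. MX1 was higher at 800 ng/ml than in untreated replicates 1 and 3, by 0.18 ± 0.19 (SE, 95% interval −0.26 to 0.62). MX2 was lower at 200 ng/ml than in these arrays, with −0.31 ± 0.13 (SE, 95% interval −0.60 to −0.01) (adjusted p = 0.425). With all 9 arrays the same differences were −0.04 and 0.0007, and untreated replicate 2 was highest for MX1 and lowest for MX2.

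The proteins that act at membranes are the IFITM family, which blocks fusion of entering viruses, and BST2, which tethers budding virions. IFITM3 had 10.41, 9.80 and 10.49 in untreated cells, 10.33, 10.47 and 10.44 at 200 ng/ml and 10.54, 10.51 and 10.49 at 800 ng/ml. IFITM2 had 9.65, 9.09 and 9.73 in untreated cells, 9.58, 9.57 and 9.66 at 200 ng/ml and 9.83, 9.72 and 9.71 at 800 ng/ml, and IFITM1 had 8.11, 7.75 and 8.22 in untreated cells, 8.27, 7.97 and 8.14 at 200 ng/ml and 8.48, 8.27 and 8.25 at 800 ng/ml. Outside untreated replicate 2, the lowest array for each, the spread of IFITM2 and IFITM3 was narrow, with ranges of 0.26 and 0.21. All 800 ng/ml arrays lay above all 200 ng/ml arrays for both, by 0.15 ± 0.10 (SE, 95% interval −0.07 to 0.37) and 0.10 ± 0.10 (SE, 95% interval −0.12 to 0.32). IFITM transcripts are similar in sequence, so probes may bind more than 1 member and single members are uncertain. BST2 had 6.64, 5.92 and 6.82 in untreated cells, 6.84, 6.98 and 7.41 at 200 ng/ml and 6.98, 6.99 and 7.06 at 800 ng/ml. The arrays of both doses lay above all untreated arrays. The difference was 0.62 ± 0.25 (SE, 95% interval 0.06 to 1.17) at 200 ng/ml (adjusted p = 0.966) and 0.55 ± 0.25 (SE, 95% interval −0.01 to 1.11) at 800 ng/ml (adjusted p = 0.659). In the 8 arrays it was 0.34 and 0.28.

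Among effectors on nucleotides and RNA, ISG20, an exonuclease, had 6.16, 6.87 and 5.68 in untreated cells, 6.36, 6.50 and 6.82 at 200 ng/ml and 5.88, 6.07 and 5.66 at 800 ng/ml. The 200 ng/ml arrays lay above all 800 ng/ml arrays and above untreated replicates 1 and 3, and untreated replicate 2 was above all of them. The difference of 800 against 200 ng/ml was −0.69 ± 0.18 (SE, 95% interval −1.09 to −0.29) without untreated replicate 2 (adjusted p = 0.193), and that of 200 ng/ml against untreated was 0.64 ± 0.20 (SE, 95% interval 0.20 to 1.08) (adjusted p = 0.323). RSAD2, which makes a nucleotide that ends viral RNA chains, had 3.06, 4.88 and 3.17 in untreated cells, 3.95, 3.46 and 3.47 at 200 ng/ml and 3.45, 3.69 and 3.15 at 800 ng/ml. It was higher at 200 ng/ml than in untreated replicates 1 and 3, by 0.51 ± 0.20 (SE, 95% interval 0.07 to 0.95) (adjusted p = 0.398), but not with untreated replicate 2 included (−0.08). CMPK2, its neighbour on the chromosome and a nucleotide kinase, ranged from 3.22 to 3.67 with overlapping groups.

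CXCL10, a chemokine that attracts activated T cells, had 3.29, 3.44 and 3.24 in untreated cells, 2.83, 3.64 and 3.10 at 200 ng/ml and 3.53, 3.61 and 3.58 at 800 ng/ml. The 800 ng/ml arrays were close together and above all untreated arrays, and the 200 ng/ml arrays spread over both. The differences were 0.31 ± 0.20 (SE, 95% interval −0.15 to 0.77) against untreated and 0.38 ± 0.18 (SE, 95% interval −0.03 to 0.79) against 200 ng/ml without untreated replicate 2 (adjusted p = 0.971 and 0.350).

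The remaining genes are named for their induction by interferon. IFI6, a membrane protein that limits flavivirus replication, had 7.47, 7.43 and 7.60 in untreated cells, 7.30, 7.73 and 7.20 at 200 ng/ml and 7.78, 7.71 and 7.75 at 800 ng/ml, so the 800 ng/ml arrays lay above the untreated arrays, with 0.21 ± 0.16 (SE, 95% interval −0.15 to 0.57) without untreated replicate 2. IFI27, a relative of IFI6, had 3.99, 6.30 and 4.45 in untreated cells, 4.37, 3.80 and 4.34 at 200 ng/ml and 4.34, 4.39 and 4.26 at 800 ng/ml. Untreated replicate 2 was 2.08 above the mean of untreated replicates 1 and 3 for IFI27, the largest such gap among the 33 genes. The IFI27 difference at 800 ng/ml was −0.59 ± 0.47 (SE, 95% interval −1.61 to 0.44) with all 9 arrays and 0.11 ± 0.20 (SE, 95% interval −0.34 to 0.56) without that array. IFI35, which partners with NMI, had 6.91, 7.07 and 6.71 in untreated cells, 7.16, 6.93 and 6.87 at 200 ng/ml and 6.65, 6.58 and 6.79 at 800 ng/ml. It had values in every 800 ng/ml array below every 200 ng/ml array, with a difference of −0.31 ± 0.12 (SE, 95% interval −0.59 to −0.04) (adjusted p = 0.284).

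IFI44L had 2.60, 2.73 and 3.27 in untreated cells, 3.62, 3.27 and 2.95 at 200 ng/ml and 3.17, 3.96 and 3.49 at 800 ng/ml. Its difference at 800 ng/ml was 0.67 ± 0.27 (SE, 95% interval 0.08 to 1.27) with all 9 arrays (adjusted p = 0.659), but the groups overlapped. IFI44, its neighbour on the chromosome, had 3.04, 2.78 and 3.48 in untreated cells, 2.98, 3.04 and 3.11 at 200 ng/ml and 3.33, 3.38 and 3.19 at 800 ng/ml. Arrays at 800 ng/ml lay above those at 200 ng/ml and overlapped with untreated cells. XAF1, a pro-apoptotic binding partner of XIAP, ranged from 4.32 to 5.34 in the 8 arrays, with overlapping groups.

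**Figure D3:**
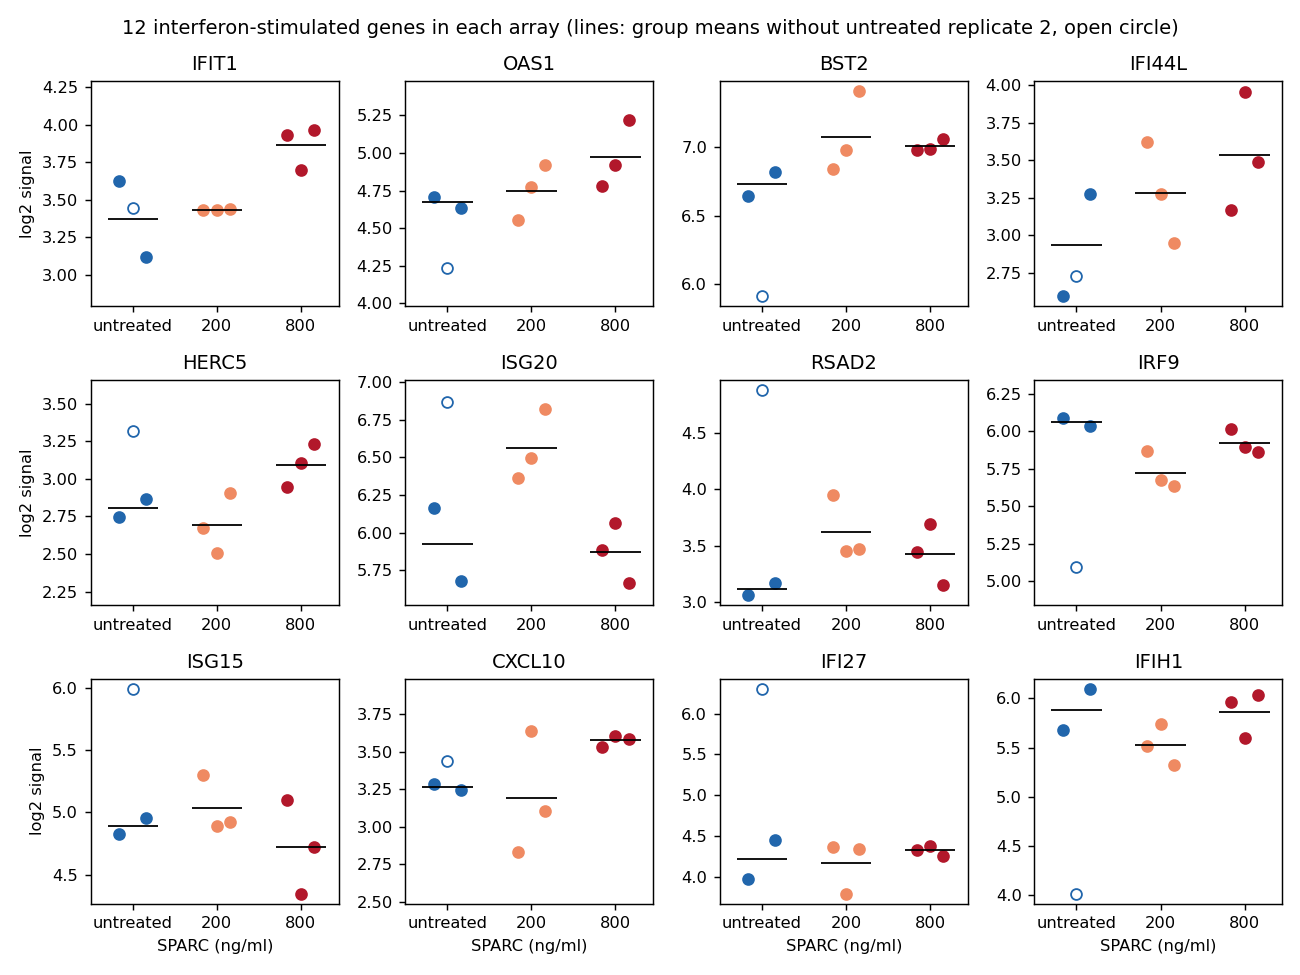
Log2 signal (vertical axis) of 12 interferon-stimulated genes in each array by SPARC dose, with vertical scales that differ between panels. The lines are group means without untreated replicate 2, which is the open circle. The 800 ng/ml arrays of IFIT1, CXCL10 and BST2 lie above all untreated arrays, and untreated replicate 2 is the farthest array for IFI27, RSAD2, ISG15 and IFIH1.

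As a list, the interferon-stimulated genes had a median log2 difference of −0.01 at 200 ng/ml against untreated, beside 0.03 over all genes, and −0.04 beside −0.02 without untreated replicate 2. In the 8 arrays the groups were separate for 11 of 33 genes, against 31.5% of all genes. IRF7, IFIT2, IFIT3, IFIT5, BST2, RSAD2 and ISG20 were higher, and RIGI, IRF9, USP18 and MX2 were lower. This count is close to the share of all genes. With all 9 arrays 3 genes did not overlap, all higher (IFIT3, IFIT5 and BST2), against 3.92% of all genes higher and 3.06% lower.

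At 800 ng/ml against untreated the median was 0.12 over all 9 arrays, with 17 of 33 genes above 0, beside 0.04 over all genes, of which 54.6% were above 0. In the 8 arrays the median was 0.06, with 20 of 33 above 0, beside −0.01 and 48.2%. In that setting the arrays of the groups did not overlap for 10 of 33 genes, against 22.3% of all genes. Those higher at 800 ng/ml were HERC5, IFIT1, OAS1, OASL, MX1, IFITM1, BST2, CXCL10 and IFI6, and the one lower was IRF9. Higher without overlap were 10.5% of all genes, and lower 11.8%. With all 9 arrays the genes without overlap were 6 (IFIT1, OAS1, IFITM1, BST2, CXCL10 and IFI6), all higher, against 6.08% of all genes higher and 5.14% lower.

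The comparison of 800 against 200 ng/ml does not involve untreated cells in its differences. Its median was 0.11 beside 0.01 over all genes, with 21 of 33 above 0 beside 52.3%. The arrays of the doses were separate for 8 of 33 genes, against 21.9% of all genes. HERC5, IFIT1, IFITM2, IFITM3 and IFI44 were higher at 800 ng/ml, and IRF7, ISG20 and IFI35 were lower. The 2 comparisons with untreated cells share the same untreated arrays, so values of a gene at the 2 doses are not independent. The list was chosen by name, with earlier results of these data known, so no test was made over it, and none of these genes passed alone.

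The median deviation of the 33 genes from their means over the 8 arrays was −0.06, −0.14 and −0.02 in untreated replicates 1, 2 and 3. At 200 ng/ml it came to 0.01, −0.04 and −0.02, and at 800 ng/ml to 0.08, 0.04 and 0.03. Neural transcripts were high in 800 ng/ml replicates 2 and 3 only, and their part in these values was not tested. IFIT1, OAS1, IFITM1, BST2, CXCL10 and IFI6 are the genes named above as higher without overlap at 800 ng/ml in the 9 arrays. Of all genes, 6.08% were higher in this way. Genes with ISRE letters in the promoter had a median difference of 0.22 at 800 ng/ml against untreated with the 9 arrays, with 11 of 18 above 0, and of 0.14 in the 8 arrays, with 14 of 18 above 0. Those with a promoter and no such letters had −0.06 and −0.05, with 3 of 8 above 0 in both settings. At 200 ng/ml the genes with ISRE letters had 0.01 in the 9 arrays, with 9 of 18 above 0, and −0.04 in the 8 arrays, with 8 of 18 above 0. Those without had −0.01, with 3 of 8 above 0, and −0.0005, with 4 of 8 above 0. Between the doses the genes with ISRE letters had 0.15, with 13 of 18 above 0. Those without had −0.04 there, with 3 of 8 above 0. The 7 genes with no promoter held here are in neither group, and the group without the letters includes OAS1 and RSAD2. The shares of all genes above 0 at 800 ng/ml and between the doses are those given with the whole list. For 200 ng/ml only the medians of all genes are given there. The split was made with the values of the genes known, rests on exact letters and few genes, and carries no test.

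**Figure D4:**
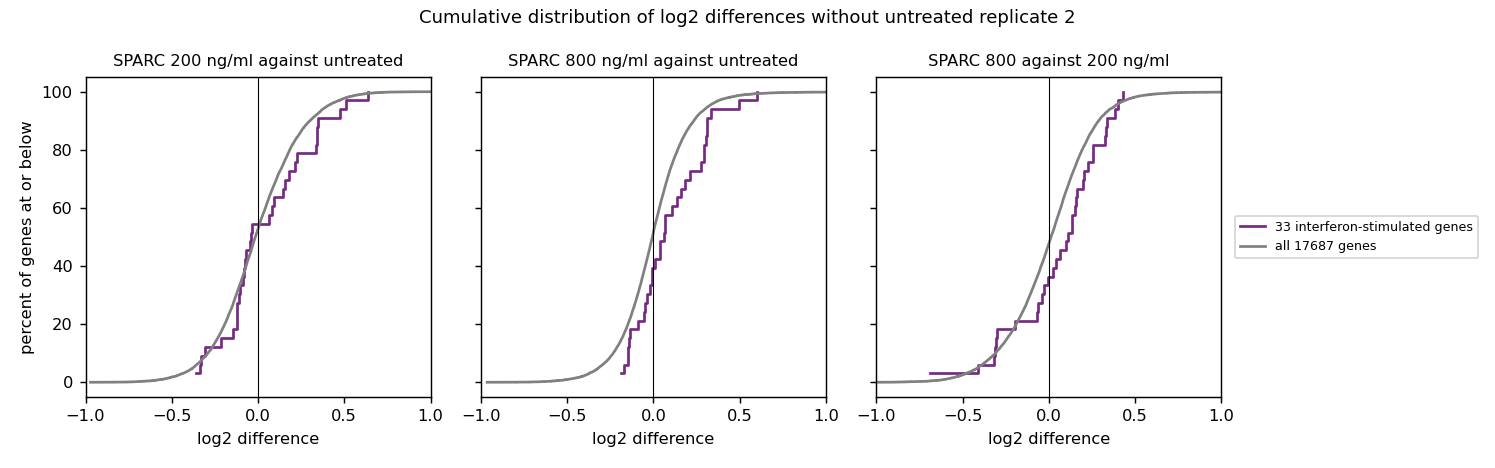
Cumulative share of genes (percent, vertical axis) at or below a log2 difference (horizontal axis, shown from −1 to 1) for 33 interferon-stimulated genes and all 17687 genes, without untreated replicate 2. The medians are −0.04, 0.06 and 0.11 for the interferon-stimulated genes and −0.02, −0.01 and 0.01 for all genes.

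The rest of the interferon pathway gave no gene past the test in any comparison. Of 22 listed interferon genes 21 were measured. At 800 ng/ml against untreated 20 of the 21 were lower with all 9 arrays (median −0.20), but 12 of 21 without untreated replicate 2 (median −0.02). Between the doses 18 of 21 were lower at 800 ng/ml (median −0.16). In both comparisons the genes of the whole array split nearly evenly, as given above. Interferon genes such as IFNA1, IFNA4, IFNA5, IFNA6 and IFNA7 were dim, with means of 2.84, 2.97, 3.18, 3.53 and 3.02 over the 8 arrays. The array medians were 5.41 to 5.55. No test was made over this list. IFNL3, a type III interferon, had 6.43, 6.60 and 6.20 in untreated cells, 6.65, 6.21 and 6.70 at 200 ng/ml and 5.88, 5.77 and 5.85 at 800 ng/ml. The 800 ng/ml arrays lay below all others, and the difference from 200 ng/ml was −0.69 ± 0.15 (SE, 95% interval −1.01 to −0.36) without untreated replicate 2 (adjusted p = 0.172). IFNL2 and IFNL3 are near-identical, so this value may hold both. Of all genes, 5.14% lay below all untreated arrays at 800 ng/ml, and 9.72% below all 200 ng/ml arrays. IFNB1, the main inducible type I interferon of epithelial cells, had 3.76, 4.49 and 3.65 in untreated cells, 3.65, 3.66 and 3.66 at 200 ng/ml and 3.61, 3.65 and 3.51 at 800 ng/ml. The 800 ng/ml arrays lay below all others but nearly touched them, with a difference from untreated of −0.12 ± 0.11 (SE, 95% interval −0.36 to 0.13) in the 8 arrays.

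Receptors, kinases and other signalling proteins of the pathway were measured for 9 genes. IL10RB, the shared receptor chain for type III interferons, was higher at 800 than at 200 ng/ml by 0.81 ± 0.15 (SE, 95% interval 0.48 to 1.14) without untreated replicate 2 (adjusted p = 0.167). Its signals were 5.52, 4.13 and 5.25 in untreated cells, 4.68, 4.94 and 5.08 at 200 ng/ml and 5.53, 5.72 and 5.88 at 800 ng/ml, so the arrays at 800 ng/ml lay above all others. Of all genes, 6.08% lay above all untreated arrays at 800 ng/ml, and 12.1% above all 200 ng/ml arrays. IFNAR1, a receptor chain for type I interferons, had differences of −0.19 at 200 ng/ml and 0.17 at 800 ng/ml against untreated in the 8 arrays, and the kinase JAK1 had −0.22 and −0.11. IFNLR1, the other chain of the type III receptor, was added after its values were seen. It had 6.63, 6.51 and 6.49 in untreated cells, 6.14, 6.44 and 6.40 at 200 ng/ml and 6.18, 6.22 and 6.03 at 800 ng/ml. All arrays of both doses lay below all untreated arrays, and the doses overlapped. The IFNLR1 difference from untreated was −0.23 ± 0.13 (SE, 95% interval −0.53 to 0.07) at 200 ng/ml and −0.41 ± 0.13 (SE, 95% interval −0.72 to −0.11) at 800 ng/ml in the 8 arrays (adjusted p = 0.539 and 0.895). None of these passed.

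A further 41 measured interferon-induced genes had a median log2 difference of 0.05 at 200 ng/ml against untreated in the 9 arrays and −0.04 in the 8 arrays, and of 0.11 and −0.01 at 800 ng/ml. Between the doses it was 0.06. Of these, HERC6, a relative of HERC5, had −0.57 and TRIM22, an antiviral ubiquitin ligase, had 0.52 between the doses without untreated replicate 2 (adjusted p = 0.185 and 0.185). The 13 measured genes of antigen presentation had medians of 0.19 and 0.03 at 800 ng/ml in the same order of settings. For sensing of nucleic acids (14 genes) the medians were 0.07 and 0.05, and for negative regulators (7 genes) 0.03 and −0.15.

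**Figure D5:**
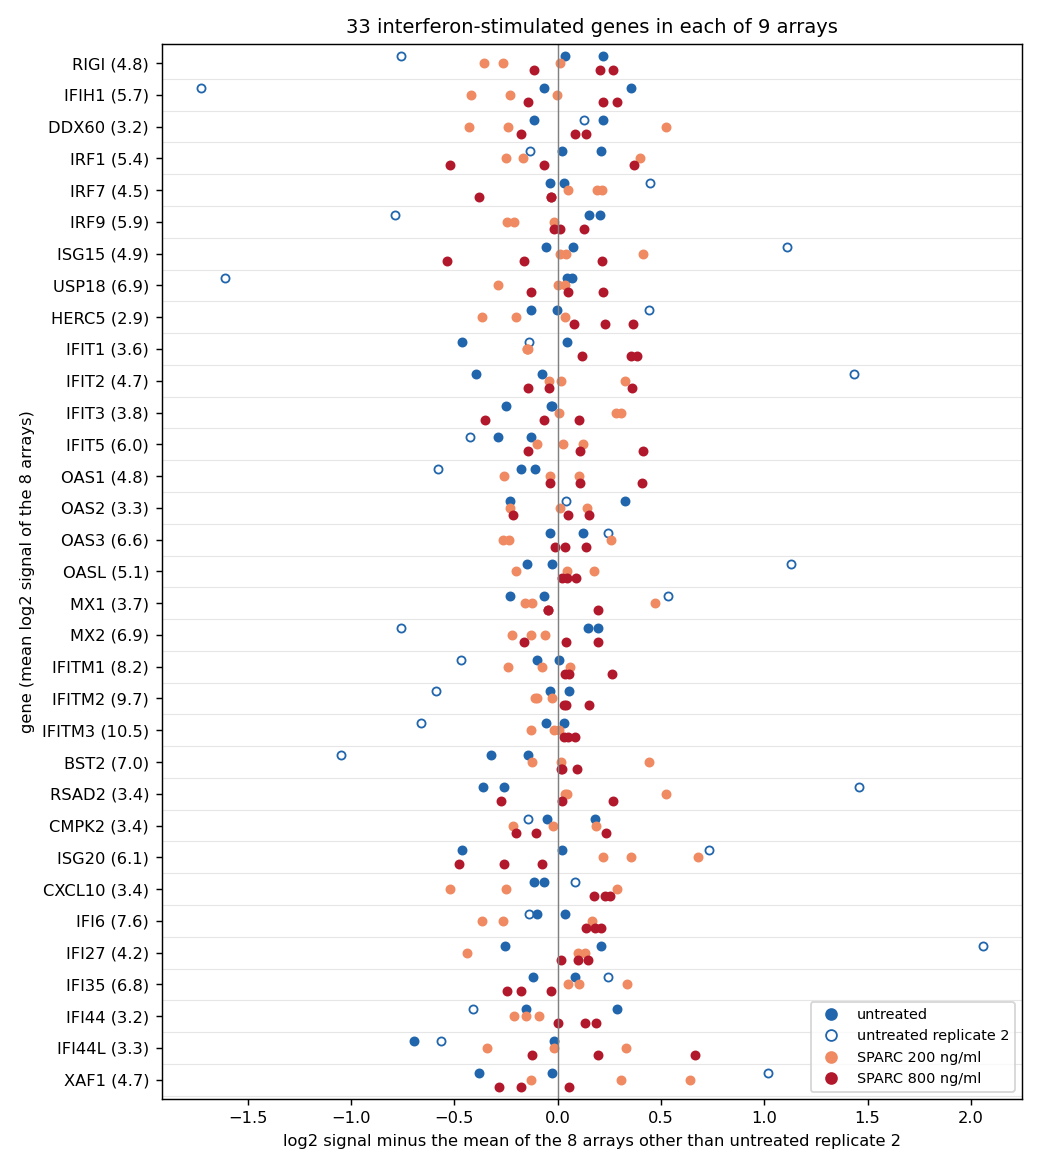
Log2 signal of each of 33 interferon-stimulated genes (rows, with the mean of the 8 arrays in brackets) in every array, as the difference from that mean (horizontal axis). Untreated replicate 2 (open circles) is the highest array in 10 rows and the lowest in 12, and the largest deviation, of IFI27, belongs to it.

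Markers of other cell types were read in the same arrays, since leukocytes express many of these genes. The median deviation of 11 leukocyte markers from their means over the 8 arrays was −0.08, 0.84 and 0.05 in untreated replicates 1, 2 and 3, 0.01 to 0.09 at 200 ng/ml and −0.17 to −0.01 at 800 ng/ml. When the markers were added up, untreated replicate 2 instead gave the lowest log2 total of all arrays, 11.68. The other untreated arrays both gave 11.80, those at 200 ng/ml 11.76 to 11.85 and those at 800 ng/ml 11.82 to 11.88. LYZ, the brightest of these markers, alone had a mean of 11.62 over the 8 arrays, so the total mostly follows LYZ. Its value in untreated replicate 2 was 11.37, the lowest of the arrays. Median deviation and total thus went opposite ways in that array. For 6 fibroblast markers and 5 endothelial markers the median deviation in untreated replicate 2 was 1.001 and 0.21. No marker was at 0, as the scale has no zero. The values of untreated replicate 2 also moved with signal over all genes. Against the mean of untreated replicates 1 and 3, its median difference was 0.41 and 0.56 in signal quartiles 1 and 2, the dimmest, and −0.53 and −0.83 in quartiles 3 and 4. Its SD over clusters was 1.67, against 1.91 to 2.003 in the other arrays. The part of the markers and of this pattern in the high RSAD2, IFIT2, ISG15 and IFI27 of untreated replicate 2 was not tested.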

How the data were processed

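Values came from a single deposited table of 9 arrays of biotin-labelled total RNA. The authors deposited log2 signals, 1 per transcript cluster and array. That the scale is log2 was read from the range of the values. The submitters' processing notes name R 3.0, and the normalization, background correction and filters behind the values were not given in the sources used here. The table held 21448 clusters, of which the platform annotation gave a symbol to 17709, and the cluster with the highest mean was kept per gene.

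One linear model over the 3 groups was fitted by lmFit and eBayes of limma 3.58.1 (R 4.3.3), with Benjamini-Hochberg adjustment over 17687 genes and a threshold of 0.05. The procedure was tested on simulated data. Intervals are 95% intervals of the moderated fit. Values per array are given for the 4 genes with the smallest p in each comparison, for genes without overlap between groups in the 8 arrays, and for IFIT1, ISG15, MX1, OAS1, IRF9, CXCL10 and IFI27. Those of IFIH1 are also given, outside these rules. IL10RB, IFNL3, HERC6 and TRIM22 had the smallest p among other interferon genes. Members and lists were chosen with earlier results of these data known. Of the array pairs, 0 held identical values. Promoters were RefSeq's, build GRCh38.p14. The number of arrays limits precision. Alternatives were other normalizations, a filter on dim genes, the mean of clusters, another prior, fits of 6 arrays, a replicate block and leaving out each array.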

Additional observations from a re-analysis of the deposited data

How the results depend on the processing

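No interferon-stimulated gene passed under any alternative run, in any comparison. The signs of the uncalled differences were less stable. Without untreated replicate 2, 22 of 33 genes kept the sign they had with all 9 arrays at 200 ng/ml against untreated, 20 at 800 ng/ml against untreated and 33 between the doses. Quantile normalization kept 22, 29 and 30. The planned offset on the linear scale was not run, since the values are log2. The number of arrays and the lack of detection calls limit what can be read from dim genes.

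The median log2 difference of the list at 800 ng/ml against untreated was 0.12 with all 9 arrays, between 0.0503 and 0.138 when each array was left out (lowest without 800 ng/ml replicate 3, 0.0640 without untreated replicate 2 and 0.0734 without untreated replicate 3), and 0.172 without the dimmest 25% of genes, which leaves 22 of the 33. Beside leaving out untreated replicate 2, a trended robust prior gave 0.0640, quantile normalization 0.0787, a replicate block 0.0668, and it was 0.0513 when 800 ng/ml replicate 1 was left out too. At 200 ng/ml against untreated it was −0.01, between −0.0411 and 0.0670 (without untreated replicate 1) when each array was left out, 0.0366 without the dimmest 25% of genes, 0.0082 with quantile normalization and 0.0309 with a replicate block and untreated replicate 2 left out. Between the doses it was 0.11, and 0.0583 (without 200 ng/ml replicate 2) to 0.138 when each array was left out. Other alternatives moved these medians by less than the spread between replicates of 0.0402.

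Counts of all genes called were 0 in the fits of all 9 arrays. Leaving out each array gave 0 to 12 genes at 800 ng/ml against untreated, 0 to 15 between the doses and 0 at 200 ng/ml against untreated. The 12 and 15 came without 800 ng/ml replicate 1, and leaving out untreated replicate 2 as well gave 24 and 25. Without untreated replicate 2, a trended robust prior called 28 genes at 200 ng/ml against untreated and 13 between the doses. None of these was an interferon-stimulated gene. The combinations of untreated replicate 2 with 800 ng/ml replicate 1, with the block and with the prior were chosen after seeing the data. The cause of these differences was not tested.

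Samples with the same replicate number correlated in their deviations from the group means at −0.25 to 0.11, and 1 of 9 such pairs exceeded 0.1. Only 1 array correlated best with its own number. Untreated replicate 2 weighs on the untreated group means, so the check cannot tell whether same-numbered samples shared a culture or batch. A replicate block left the medians at −0.01, 0.12 and 0.11 for 200 ng/ml and 800 ng/ml against untreated and between the doses, with 0 genes called.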
